A study of Mus musculus with 11 samples.

Results

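The genes examined here encode subunits of the mitochondrial respiratory chain, with complex I assembly factors whose names share the Nduf prefix. They were chosen by symbol: every gene whose name on the array begins with Nduf, Uqcr, Cox4, Cox5, Cox6, Cox7, Cox8 or Atp5, and Sdha, Sdhb, Sdhc, Sdhd, Cycs and Cyc1. The array names 87 such genes with 110 probes, and 79 of them had a probe detected (detection p under 0.01) on at least 2 arrays; these 79 are the members, out of 9620 genes tested in all. Each member is represented by its brightest detected probe. Of the members, 38 belong to complex I (32 subunits, 5 assembly factors and the pseudogene Ndufs5-ps), 3 to complex II, 7 to complex III, 15 to complex IV, 15 to complex V, and 1 is cytochrome c. The probes of the other 8 genes, Ndufs1, Uqcrfs1, Uqcrq, Cox6a2, Cox7b2, Cox8b, Cox8c and Atp5k, were detected on 0 of the 11 arrays. Sdha, Ndufa4l2 and the subunits encoded by mitochondrial DNA have no named probe in the table used here. The detection rule was just met by Cox4i2, detected on 2 arrays, while 67 members were detected on all 11.

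Complexes I and II pass electrons from NADH and succinate to ubiquinone, complex III hands them to cytochrome c, and complex IV passes them to oxygen; complexes I, III and IV pump protons, and complex V (ATP synthase) lets protons flow back to make ATP. Each complex has a set of nuclear-encoded subunits, and several complex IV subunits have alternative isoforms that are known mainly from muscle, lung or testis. Embryonic stem cells are known to use respiration together with glycolysis, whereas epiblast stem cells are known to lean on glycolysis.

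RNA came from 6 groups of male mouse stem cells. Mouse embryonic stem cells (ESC), epiblast stem cells of the GOF18 line (EpiSC) and the same line overexpressing wild-type Sox2 in conditioned EpiSC medium, named CM (Epi-Sox2), had 2 arrays each. The E3 line of epiblast stem cells, kept in CM, was sorted by its Oct4-GFP reporter into EpiSC-GFP- and EpiSC-GFP+ fractions with 2 arrays each, and T9-EpiSC had 1 array of the T9 line, kept on medium-density CF1 feeder fibroblasts in a medium named UM, without Fgf2 for 2 days, and taken off the feeders. The labels call the arrays of a group biological replicates, but each group is 1 line, so p-values measure the spread between these arrays and not between lines. The medium of the ESC and of the plain EpiSC is not given in the sources used here, so line, medium and sorting cannot be told apart from the named difference where they differ.

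The array's own signals differed between the groups. Mean intensity was 595 and 623 on the ESC arrays and 199.7 to 371 on the other 9, and 9250 to 11675 probes and 67 to 78 members were detected per array. Of the 3 pluripotency markers, 3 were detected on every array. Of 10 fibroblast markers, 7 were detected on each ESC array, 5 in T9-EpiSC, 3 and 4 in Epi-Sox2, 2 and 3 in EpiSC and 2 on each sorted array; Col1a2, Lum and Postn did not pass the detection filter. Their summed signal on the log2 scale, of which Acta2 gave the most, was 10.93 and 10.99 in ESC, 11.06 in T9-EpiSC, 10.50 and 10.65 in Epi-Sox2, 8.81 and 8.84 in EpiSC, and 9.41 to 9.61 in the sorted fractions. It was therefore higher in ESC than in EpiSC, as were the array intensities, and the part of either in the differences below was not tested. In bulk RNA, fewer cells of a type and less RNA per cell cannot be told apart.

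Upstream sequence was available for 67 of the 79 members in RefSeq (GRCm38.p6), and 4 motifs of factors known to bind respiratory chain genes were searched on both strands of the 250 bases before each start. The NRF1 motif, GCGCA and GCGC with any 1 base between them, was found before 10 of the 67 members and before 1144 of 27018 genes (4.23%). The ETS motif CCGGAAG, bound by GABPA, was found before 13 (19.4%) against 7.83%. The YY1 motif AAGATGGCG was found before 1 member (1.49%) against 0.707% of genes, and the estrogen-related receptor motif TCAAGGTCA before 1 (1.49%) against 0.422%. The 27018 are all genes with a sequence, whether or not they were detected here, while the members passed the detection filter. The shares over the genes tested were not counted, so these are unlike sets. The first 3 sequences below are the members that hold both the NRF1 and the ETS motif, with both in capitals. They are shown because they hold both motifs; Sdhd and Atp5h fell in EpiSC and Cox6a1 was called higher. Of the 11 members with a large fall in EpiSC (described below) and a sequence, 3 held the NRF1 and 3 the ETS motif (27.3% each), against 12.5% and 17.9% of the 56 other members, a difference that was not tested. The fourth is the muscle isoform Cox7a1, which rose in the sorted fractions and holds none of the 4 motifs in this window. Each is the 250 bases before the start, 5′ to 3′ on the gene's strand.
Sdhd (chr9:50603850-50604099, minus strand): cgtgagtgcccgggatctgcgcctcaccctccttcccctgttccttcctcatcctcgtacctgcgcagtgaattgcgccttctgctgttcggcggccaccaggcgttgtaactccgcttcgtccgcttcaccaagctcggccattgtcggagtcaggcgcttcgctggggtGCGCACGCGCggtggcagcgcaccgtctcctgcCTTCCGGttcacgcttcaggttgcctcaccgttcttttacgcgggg
Atp5h (chr11:115419920-115420169, minus strand): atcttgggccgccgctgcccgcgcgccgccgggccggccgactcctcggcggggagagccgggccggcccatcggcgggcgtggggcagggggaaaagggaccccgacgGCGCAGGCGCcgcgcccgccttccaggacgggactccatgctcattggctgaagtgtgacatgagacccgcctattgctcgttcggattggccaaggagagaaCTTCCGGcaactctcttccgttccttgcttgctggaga
Cox6a1 (chr5:115348959-115349208, minus strand): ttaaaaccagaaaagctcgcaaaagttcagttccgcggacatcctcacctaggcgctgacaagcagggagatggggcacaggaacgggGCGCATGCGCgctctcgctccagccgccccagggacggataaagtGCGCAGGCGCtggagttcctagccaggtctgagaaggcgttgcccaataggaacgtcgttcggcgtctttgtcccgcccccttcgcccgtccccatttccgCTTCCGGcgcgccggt
Cox7a1 (chr7:30183921-30184170, plus strand): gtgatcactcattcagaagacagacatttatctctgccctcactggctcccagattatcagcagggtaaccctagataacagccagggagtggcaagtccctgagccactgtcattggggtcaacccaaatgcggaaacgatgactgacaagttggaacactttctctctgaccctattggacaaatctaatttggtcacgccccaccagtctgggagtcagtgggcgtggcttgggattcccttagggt
A match is a description of letters and not a bound site.

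Levels below are log2 of the background-corrected, quantile-normalised signal, and a difference is between group means of such values. A member is called where limma's moderated test over all 9620 genes gave a Benjamini-Hochberg adjusted p under 0.05. Over the 5 replicated groups, 67 of the 79 members (84.8%) were called by the F-test, against 85.5% of all genes tested. The group with the highest mean was EpiSC-GFP- for 27 members, ESC for 24, EpiSC-GFP+ for 13, Epi-Sox2 for 11 and EpiSC for 4. ESC had the lowest mean for 38 members, EpiSC-GFP- for 17, Epi-Sox2 for 13, EpiSC-GFP+ for 7 and EpiSC for 4. ESC thus stood at one end or the other for most members, and the plain EpiSC for few. The same order was not counted over all genes, so it is not known to be particular to the members. It may also change with the scaling. The members' median of EpiSC minus ESC was 0.16 here, -0.19 with cyclic loess and -0.32 with median scaling.

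**Figure D1:**
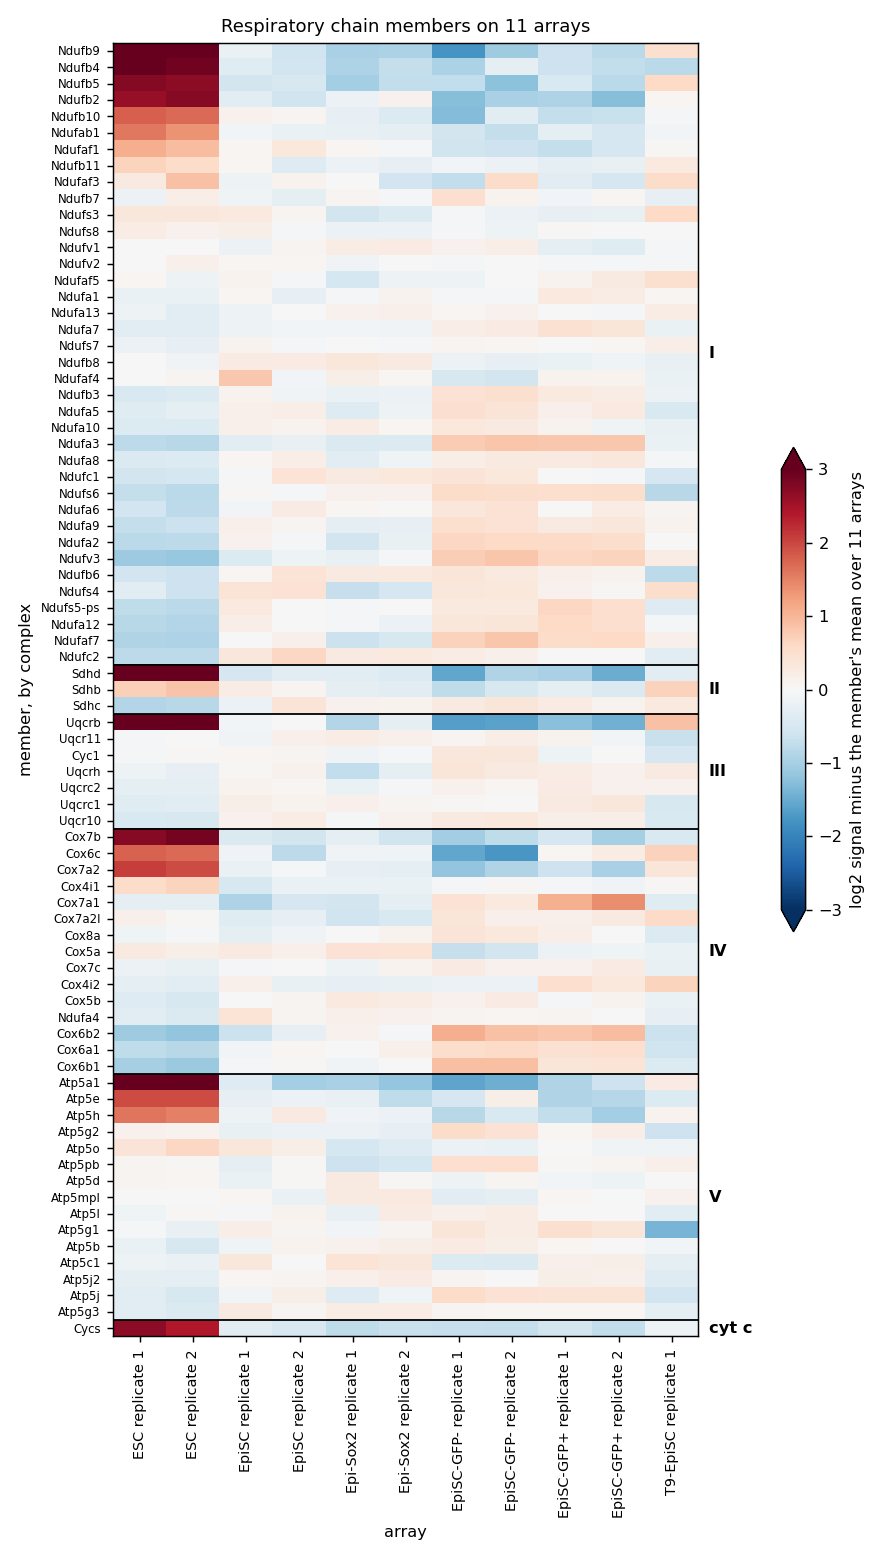
Log2 signal of the 79 members on each of the 11 arrays, shown as the difference from the member's own mean over all arrays (colour, log2 units, limits at -3 and 3). Rows are grouped by complex and ordered by EpiSC minus ESC. The 15 members with the largest falls are red, to differing depth, on the 2 ESC arrays, and most others vary by less than 1.

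The comparison of EpiSC with ESC asks how the respiratory chain transcripts differ between the primed and the naive kind of pluripotent cell. A block of 15 members, found in every complex, was far lower in EpiSC, while most of the other members differed by less than 1 log2 unit. Under quantile normalisation more of these others were called higher than lower. They are what is left once the largest falls are set aside, which favours such an excess. The direction of the smaller differences also changed with the scaling, as given below. In all, 52 of the 79 members (65.8%) were called, against 66.6% of all genes tested, so the share was near the background. Of these, 31 were higher in EpiSC (40.4% of all genes were) and 21 lower (26.2% of all genes). The median difference was 0.16 for the members and 0.22 for all genes. In complex I, 18 of 38 members were called higher and 8 lower; in complex II, 1 and 2 of 3; in complex III, 3 and 1 of 7; in complex IV, 5 and 5 of 15; and in complex V, 4 and 4 of 15. Cytochrome c was called lower.

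The falls were much larger than the rises. In EpiSC, 15 members (19% of the members) were called lower by at least 1 log2 unit, against 14.8% of all genes, a size chosen after the values were seen. Their folds ran from 2.81 (Atp5h) to 24.5 (Atp5a1). On both ESC arrays each of the 15 lay at least 1 log2 unit above all 9 other arrays, a pattern held by 724 of all genes (7.53%). The reverse, with all 9 other arrays at least 1 above both ESC arrays, held for 0 members and for 474 genes (4.93%). The 15 were Ndufb2, Ndufb4, Ndufb5, Ndufb9, Ndufb10 and Ndufab1 of complex I, Sdhd of complex II, Uqcrb of complex III, Cox6c, Cox7a2 and Cox7b of complex IV, Atp5a1, Atp5e and Atp5h of complex V, and Cycs. All 15 were detected on both ESC arrays, but 6 of them on all 11 arrays, so for the rest the lower level is near background. Cycs and Ndufb4 met the detection rule only through their ESC arrays. The remaining 64 members lay between -0.95 (Cox4i1) and 1.27 (Ndufc2), with a median of 0.32. Of them, 31 were called higher, 6 lower and 27 neither. Setting the 15 falls aside favours higher calls among the rest. With cyclic loess and with median scaling, more members were called lower than higher, as given below.

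**Figure D2:**
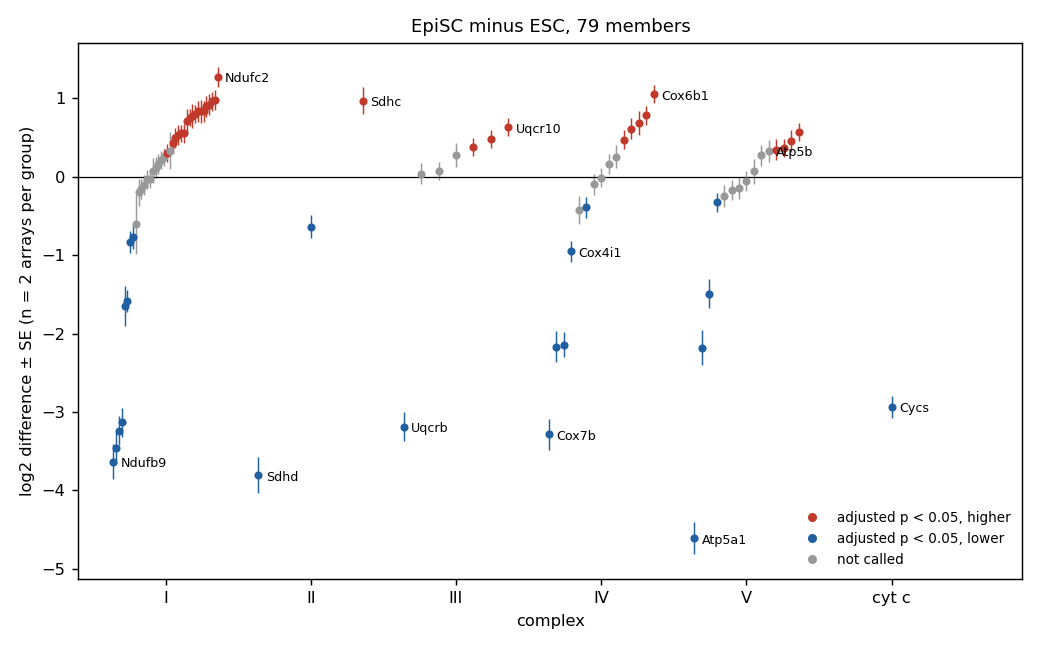
Difference in mean log2 signal, EpiSC minus ESC, with its standard error (2 arrays per group), for each of the 79 members by complex; colour marks the call. Complexes I, III, IV and V hold members near 0 beside members between -1.49 and -4.61, and the 3 members of complex II lie apart from 0.

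Complex V shows the contrast within one enzyme. Atp5a1 and Atp5b encode the alpha and beta subunits, which alternate in the catalytic F1 head. The Atp5a1 probe read 11.92 and 11.71 in ESC, 7.52 and 6.88 in EpiSC, 6.93 and 6.75 in Epi-Sox2, 6.32 and 6.44 in EpiSC-GFP-, 7.01 and 7.28 in EpiSC-GFP+ and 8.15 in T9-EpiSC. It was thus far above all other arrays in ESC, intermediate in T9-EpiSC and lowest in EpiSC-GFP-. The fall from ESC to EpiSC was 24.5-fold (log2 difference -4.61, SE 0.20, adjusted p = 8.67e-08). The Atp5b probe read 14.16 and 13.85 in ESC, 14.22 and 14.44 in EpiSC, 14.47 and 14.52 in Epi-Sox2, 14.59 and 14.52 in EpiSC-GFP-, 14.40 and 14.35 in EpiSC-GFP+ and 14.25 in T9-EpiSC. The ESC and EpiSC values lay close together and the difference of 0.33 was not called. Atp5e, the epsilon subunit of the F1 head, read 7.46 and 7.45 in ESC and 5.24 and 5.31 in EpiSC and fell by 2.18 (SE 0.22, adjusted p = 1.63e-05), while the gamma subunit Atp5c1 was called higher by 0.35 (SE 0.14, adjusted p = 0.0454). In the membrane part and stalks, Atp5h, the d subunit of the peripheral stalk, read 10.89 and 10.80 in ESC and 9.14 and 9.56 in EpiSC and fell by 1.49 (adjusted p = 5.82e-05). Atp5g1, Atp5g2 and Atp5g3 encode the same mature c subunit of the rotor ring from separate genes, and their probes differed in direction under quantile normalisation. Atp5g2 fell by 0.33 (adjusted p = 0.0341), Atp5g3 was called higher by 0.57 (adjusted p = 0.00175), and Atp5g1, at 0.27, was not called. With cyclic loess and median scaling, Atp5g3 lay at 0.19 and 0.04 and was not called. Atp5g1 then lay at -0.07 and -0.20, and Atp5g2 at -0.68 and -0.80.

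Complex II has 3 measured subunits, and 2 fell. Sdhd, one of the pair of membrane anchors, read 9.32 and 9.15 in ESC, 5.33 and 5.53 in EpiSC, 5.51 and 5.43 in Epi-Sox2, 4.28 and 4.95 in EpiSC-GFP-, 4.86 and 4.36 in EpiSC-GFP+ and 5.52 in T9-EpiSC. Only the ESC arrays exceeded 6, and the probe was not detected on the 4 sorted arrays. Its fall from ESC to EpiSC was 14.0-fold (-3.81, SE 0.23, adjusted p = 5.04e-07). The other anchor, Sdhc, moved the opposite way: it read 9.16 and 9.21 in ESC and 9.88 and 10.43 in EpiSC and was called higher in EpiSC by 0.97 (SE 0.17, adjusted p = 0.000701). Sdhb, the iron-sulfur subunit, read 9.27 and 9.43 in ESC, 8.78 and 8.65 in EpiSC, 8.27 and 8.23 in Epi-Sox2, 7.81 and 8.10 in EpiSC-GFP-, 8.31 and 8.13 in EpiSC-GFP+ and 9.25 in T9-EpiSC. It was highest in ESC and T9-EpiSC and fell by 0.63 from ESC to EpiSC (SE 0.14, adjusted p = 0.00289). Of the other detected Sdhb probes, one was also called lower (-1.01), and the other, detected on no EpiSC array, was at least 1.34-fold lower (adjusted p = 0.00105). That last probe was detected on the 2 ESC arrays alone. It met the detection rule only through the group where it is high, so it is no separate support.

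Cytochrome c, the soluble carrier between complexes III and IV, is encoded by Cycs. Its probe read 7.77 and 7.49 in ESC, 4.77 and 4.62 in EpiSC, 4.33 and 4.42 in Epi-Sox2, 4.41 and 4.38 in EpiSC-GFP-, 4.54 and 4.35 in EpiSC-GFP+ and 4.95 in T9-EpiSC. It was detected on both ESC arrays and the T9-EpiSC array and on none of the other 8, so the EpiSC level was at least 6.75-fold lower than in ESC (adjusted p = 1.37e-07). The other detected Cycs probe, not detected in ESC, was not called. In complex III, Uqcrb, an accessory subunit near the ubiquinone site, read 11.41 and 11.41 in ESC, 8.19 and 8.25 in EpiSC, 7.38 and 8.0 in Epi-Sox2, 6.60 and 6.66 in EpiSC-GFP-, 7.0 and 6.82 in EpiSC-GFP+ and 9.13 in T9-EpiSC. T9-EpiSC stood between ESC and the remaining groups, and the sorted fractions were lowest. Uqcrb fell 9.13-fold from ESC to EpiSC (-3.19, SE 0.18, adjusted p = 4.05e-07). The core subunits Uqcrc1 and Uqcrc2 were called higher by 0.48 and 0.38, the small subunit Uqcr10 by 0.63 (adjusted p = 0.000931), and Cyc1, the cytochrome c1 of the complex, lay at 0.07 and was not called.

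In complex IV, Cox7b, Cox6c and Cox7a2, which are small membrane subunits around the catalytic core, fell most. Cox7b read 8.32 and 8.45 in ESC and 5.16 and 5.04 in EpiSC and fell 9.76-fold (-3.29, SE 0.19, adjusted p = 4.51e-07). Cox6c read 11.88 and 11.82 in ESC and 10.03 and 9.34 in EpiSC and fell by 2.17 (SE 0.20, adjusted p = 7.9e-06). Cox7a2 read 8.33 and 8.21 in ESC and 6.04 and 6.22 in EpiSC and fell by 2.14 (SE 0.16, adjusted p = 1.81e-06). The ESC and EpiSC arrays did not overlap for any of these 3, which follows from the size of the falls. Cox4i1, the widely expressed isoform of subunit 4, read 12.70 and 12.80 in ESC and 11.66 and 11.94 in EpiSC and fell by 0.95 (SE 0.13, adjusted p = 0.000126), and Cox7a2l, a factor that joins complexes III and IV, fell by 0.39 (adjusted p = 0.025). In the other direction, Cox6b1, which faces the intermembrane space, read 10.84 and 10.73 in ESC and 11.80 and 11.87 in EpiSC and was called higher by 1.05 (SE 0.12, adjusted p = 2.72e-05). Cox6a1 was called higher by 0.78, the testis isoform Cox6b2 by 0.69, Ndufa4 by 0.61 and Cox5b by 0.47. Ndufa4 was named as a complex I gene and is now placed with complex IV.

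In complex I, 7 of the 8 members called lower were accessory subunits of the NDUFB family or Ndufab1, and the other was the assembly factor Ndufaf1, which fell by 0.83 (adjusted p = 0.000526). Ndufb9 read 9.60 and 9.49 in ESC, 6.11 and 5.71 in EpiSC, 5.34 and 5.36 in Epi-Sox2, 4.52 and 5.22 in EpiSC-GFP-, 5.68 and 5.49 in EpiSC-GFP+ and 6.77 in T9-EpiSC and fell 12.4-fold from ESC to EpiSC (-3.64, SE 0.22, adjusted p = 5.42e-07). Ndufb4 read 8.39 and 8.21 in ESC and 4.94 and 4.74 in EpiSC and fell 11.0-fold (-3.46, SE 0.20, adjusted p = 4.7e-07); it was detected on 1 of the 2 EpiSC arrays. Ndufb5 read 9.90 and 9.84 in ESC and 6.60 and 6.67 in EpiSC and fell by 3.24 (SE 0.19, adjusted p = 4.05e-07). All 3 had both ESC arrays well above both EpiSC arrays, which follows from the size of the falls. Ndufb2 fell by 3.13 and Ndufb10 fell by 1.65. Ndufab1, the mitochondrial acyl carrier protein, fell by 1.59 and was detected on 1 EpiSC array. The same NDUFB family held members that went the other way or were not called: Ndufb6 was called higher by 0.83 and Ndufb3 by 0.43, and Ndufb7 was not called. The second Ndufb6 probe, at -0.04, was not called. The 2 largest rises of complex I members were those of Ndufc2, another membrane arm subunit, which read 10.50 and 10.50 in ESC and 11.63 and 11.91 in EpiSC and was called higher by 1.27 (SE 0.13, adjusted p = 1.46e-05), and of the assembly factor Ndufaf7, which was called higher by 0.98 (SE 0.13, adjusted p = 7.68e-05). Ndufa12, which sits at the joint of the peripheral arm, followed with 0.96 (adjusted p = 7.88e-05). Of the 8 core subunits measured in complexes I and III, 2 were called and both were higher (Uqcrc1 and Uqcrc2), against 17 higher and 8 lower of the 31 accessory subunits. The shares called were 25% and 80.6%, beside 66.6% of all genes, and the difference between these roles was not tested.

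For 13 members more than 1 probe was detected, 17 further probes in all, and these did not always follow the brightest one. In EpiSC minus ESC, 3 of the 13 (23.1%) had probes called in opposite directions, against 308 of 2426 genes with several probes (12.7%). Ndufs4, an accessory subunit added late in complex I assembly, had 4 probes. Its brightest read 10.46 and 10.17 in ESC, 11.20 and 11.23 in EpiSC, 10.11 and 10.30 in Epi-Sox2, 11.13 and 11.11 in EpiSC-GFP-, 10.94 and 10.85 in EpiSC-GFP+ and 11.32 in T9-EpiSC and was called higher in EpiSC by 0.90 (SE 0.14, adjusted p = 0.000247). A second probe of Ndufs4 read 9.78 and 10.02 in ESC, 6.99 and 6.76 in EpiSC, 6.09 and 6.31 in Epi-Sox2, 5.68 and 5.48 in EpiSC-GFP-, 5.38 and 5.68 in EpiSC-GFP+ and 8.30 in T9-EpiSC and fell by 3.03, and the other two differed by -1.42 and -1.48, both called lower. The brightest Ndufs4 probe was thus lowest in Epi-Sox2 and ESC, and the other probes of the gene were highest in ESC and T9-EpiSC. The brightest probe of Ndufa5, a peripheral arm subunit, was called higher by 0.50 (adjusted p = 0.00666) and its other probe fell by 3.71. For the accessory subunit Ndufv3 the brightest probe was called higher by 0.83, another fell by 0.45 and the third, at -0.02, was not called. The assembly factor Ndufaf5 was not called by its brightest probe (0.08), whereas its other probe, detected on no EpiSC array, was at least 8.97-fold lower (adjusted p = 3.98e-08). Without its 2 ESC detections that probe would not have met the detection rule. For Uqcr10, Cox6a1, Ndufc1 and Atp5j the second probe was called higher like the first. For Cox6b1, Ndufa8 and Ndufb6 the first was called higher and the second, at 0.33, 0.22 and -0.04, was not called. Among the 15 members with the large falls, Cycs alone had a second detected probe, so a single probe carries each of the other 14.

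**Figure D3:**
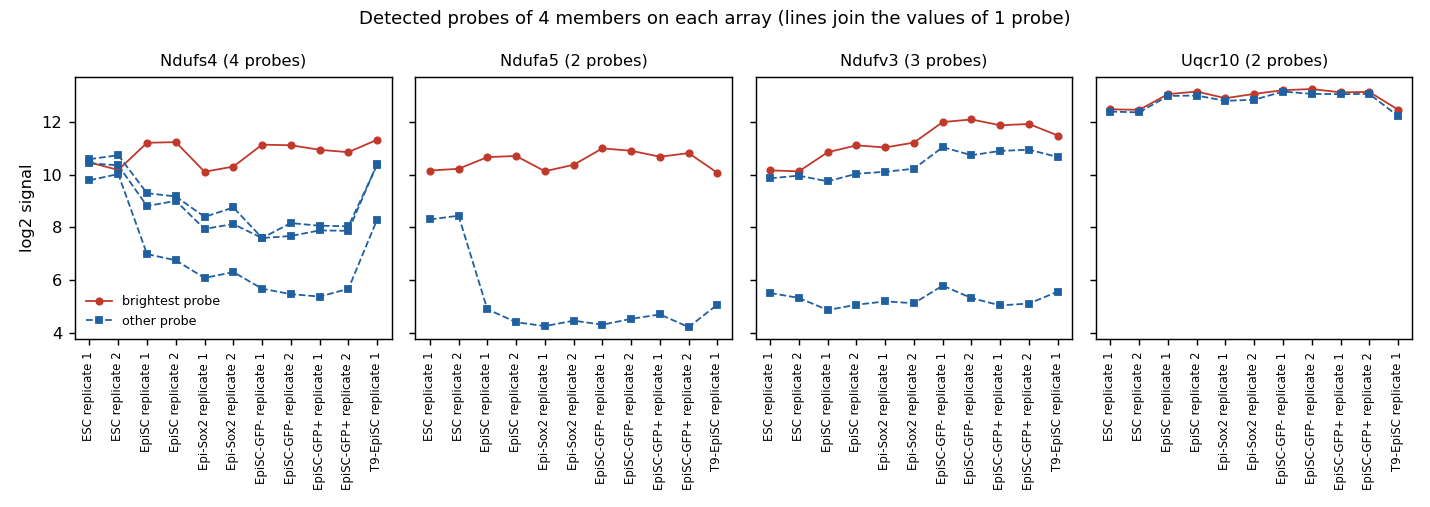
Log2 signal of every detected probe of Ndufs4, Ndufa5, Ndufv3 and Uqcr10 on the 11 arrays; red is the brightest probe, blue the others, and lines join the values of 1 probe. For Ndufs4 and Ndufa5 the brightest probe rises from ESC to EpiSC while the others fall, and for Uqcr10 both probes run together.

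The direction of the smaller differences depended on how the arrays were scaled, and that of the large falls did not. Quantile normalisation put the median of all genes at 0.22 for EpiSC minus ESC, cyclic loess at 0.01 and median scaling at -0.13. Against that median, the members' median lay at -0.05, -0.20 and -0.19. The members called higher and lower were 31 and 21 under quantile normalisation, 15 and 34 under cyclic loess, and 3 and 31 under median scaling. The share of calls that were higher thus went from 59.6% to 30.6% and 8.82%, and for all genes from 60.7% to 49% and 39.9%. Of the rises named above, those of Ndufc2 (0.91 with cyclic loess and 0.79 with median scaling) and Cox6b1 (0.68 and 0.56) were called under all 3; the second Cox6b1 probe, at 0.33, was not called. Atp5c1 turned to -0.02 and -0.15 and Uqcrc2 to 0.03 and -0.09. The 15 large falls were called under both other scalings, and Atp5a1 read -4.95 and -5.08.

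Taking the mean of the 4 replicated epiblast stem cell groups against ESC, 60 of 79 members (75.9%) were called against 74.3% of all genes, 37 higher (45.6% of all genes) and 23 lower (28.7%). These epiblast groups include the 2 EpiSC arrays of the comparison above, and both comparisons use the same ESC arrays. By at least 1 log2 unit, 17 members fell (15.4% of all genes). Atp5a1 fell by 4.92 (SE 0.16, adjusted p = 7.17e-09) and Uqcrb fell by 4.05. Sdhd and Ndufb9 differed by -4.21 and -4.12, with means that include background values, since Sdhd was not detected in the sorted fractions nor Ndufb9 in EpiSC-GFP-. On this wider basis the assembly factor Ndufaf1 fell by 1.27 (adjusted p = 3.42e-06) and Sdhb fell by 1.07 (adjusted p = 1.27e-05). The largest rise was that of Cox6b2, the isoform of subunit 6B known from testis. It read 6.32 and 6.22 in ESC, 6.76 and 7.15 in EpiSC, 7.52 and 7.35 in Epi-Sox2, 8.48 and 8.28 in EpiSC-GFP-, 8.23 and 8.31 in EpiSC-GFP+ and 6.74 in T9-EpiSC and was called higher by 1.49 (SE 0.12, adjusted p = 2.18e-06). The sorted fractions were the highest and ESC the lowest. Ndufv3 was called higher by 1.36 and Cox6b1 by 1.36, and Ndufaf7 by 1.12. With cyclic loess 19 were higher and 35 lower, and with median scaling 6 and 44.

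**Figure D4:**
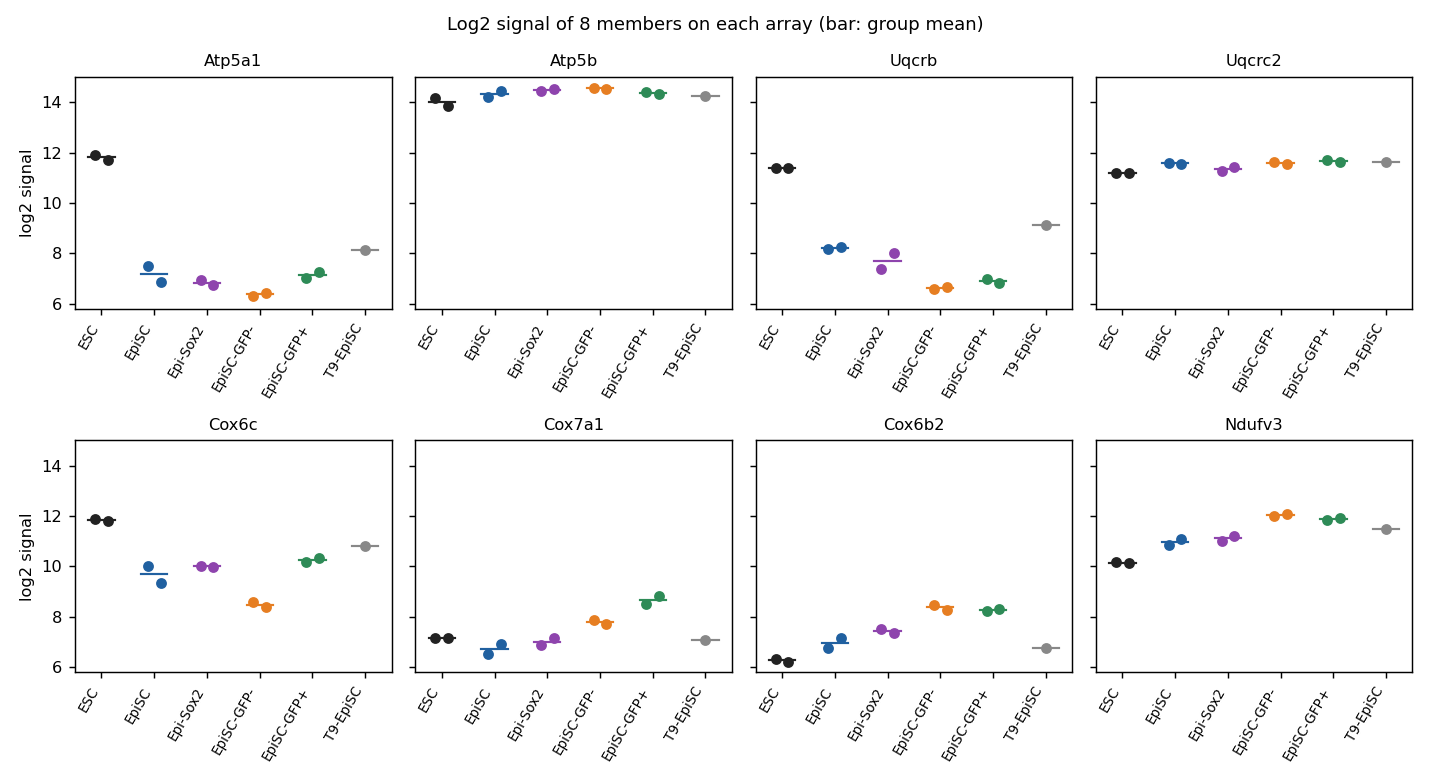
Log2 signal of Atp5a1, Atp5b, Uqcrb, Uqcrc2, Cox6c, Cox7a1, Cox6b2 and Ndufv3 on each array by group (points, arrays; bars, group means; T9-EpiSC has 1 array). Atp5a1 and Uqcrb drop from above 11 in ESC to below 9.2 elsewhere, Cox6c separates EpiSC-GFP- from EpiSC-GFP+, and Cox7a1 and Cox6b2 are highest in the sorted fractions.

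The comparison of Epi-Sox2 with EpiSC asks what overexpressed Sox2 goes with in the GOF18 line. Few members were called, and each was lower: 9 of 79 (11.4%) against 19.9% of all genes, with 0 higher (10.5% of all genes) and 9 lower (9.40%). The median difference was -0.11 for the members and -0.01 for all genes. The fall of Ndufs4 was the largest. Its brightest probe read 11.20 and 11.23 in EpiSC and 10.11 and 10.30 in Epi-Sox2, a fall by 1.01 (SE 0.14, adjusted p = 0.00127). The groups did not overlap, and the call held under each alternative run. Atp5o, the subunit that ties the peripheral stalk to the F1 head, read 8.83 and 8.67 in EpiSC and 7.96 and 8.09 in Epi-Sox2 and fell by 0.72 (SE 0.14, adjusted p = 0.00638). Ndufs3, a core subunit of the peripheral arm, read 10.31 and 10.09 in EpiSC and 9.46 and 9.60 in Epi-Sox2 and fell by 0.67 (adjusted p = 0.00671). Ndufaf7 fell by 0.64 (adjusted p = 0.00817). Each of these lay below both EpiSC arrays on both Epi-Sox2 arrays, as did members that were not called, such as Ndufa8 and Atp5j. How many of all genes did was not counted. Uqcrh, the hinge protein of complex III, read 12.05 and 12.14 in EpiSC and 11.28 and 11.72 in Epi-Sox2; it fell by 0.60 (adjusted p = 0.0244). Sdhb, the b subunit Atp5pb of the stalk, and Ndufa5 and Ndufa9 of complex I were lower too (differences of -0.46, -0.46, -0.43 and -0.38), with adjusted p from 0.0353 to 0.0459. The other detected probes of Sdhb, at -0.533 and -0.038, and of Ndufa5, at -0.29, were not called. The calls of Atp5pb and Ndufa5 were lost with cyclic loess, with median scaling and with the authors' values. The complex IV members had no call in either direction, 0 of 15. Without Epi-Sox2 replicate 1 the 9 calls became 1, that of Ndufs4, and 5 members were called without ESC replicate 1, ESC replicate 2, EpiSC-GFP+ replicate 1 or EpiSC-GFP+ replicate 2, which enter only through the shared estimate of the spread. The fibroblast markers had a higher sum in Epi-Sox2 than in EpiSC, as given above, which Acta2 carried (higher by 2.47); 1 of the 7 measured markers was called higher, with a median of 0.15. Their part was not tested.

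The sort of E3 cells by the Oct4-GFP reporter asks what separates the reporter-positive from the reporter-negative cells of one culture. Here 13 of 79 members (16.5%) were called against 26.7% of all genes, 7 higher in EpiSC-GFP+ (13.4% of all genes) and 6 lower (13.2%). Complex IV had 4 higher and 1 lower of 15, complex V 2 and 3 of 15, complex I 1 and 1 of 38, complex III 0 and 1 of 7 and complex II 0 of 3. These counts rest on the brightest probes, and 13 of the 17 other probes had the same call. One other Sdhb probe was called higher (0.765, adjusted p = 0.0128). Another, detected in ESC alone, was called lower (-0.717, adjusted p = 0.00865). The second Ndufc1 probe was called higher by 0.656, and the brightest, at -0.37, was not called. The second Atp5j probe was called lower (-0.471, adjusted p = 0.0368), and the brightest, at -0.079, was not called. Cox6c stood apart from the rest. It read 11.88 and 11.82 in ESC, 10.03 and 9.34 in EpiSC, 10.02 and 9.995 in Epi-Sox2, 8.57 and 8.39 in EpiSC-GFP-, 10.17 and 10.34 in EpiSC-GFP+ and 10.82 in T9-EpiSC, so both reporter-positive arrays lay about as high as Epi-Sox2 and the reporter-negative arrays below all others. It was called higher by 1.78, or 3.43-fold (SE 0.20, adjusted p = 0.000347), also under each alternative run. Cox7a1, the isoform of subunit 7A known from heart and skeletal muscle, read 7.14 and 7.15 in ESC, 6.51 and 6.93 in EpiSC, 6.87 and 7.15 in Epi-Sox2, 7.88 and 7.72 in EpiSC-GFP-, 8.51 and 8.84 in EpiSC-GFP+ and 7.06 in T9-EpiSC. It was highest in EpiSC-GFP+ and called higher there than in EpiSC-GFP- by 0.87 (SE 0.18, adjusted p = 0.0073). Atp5a1, whose values are given above, was called higher by 0.76 (SE 0.20, adjusted p = 0.0225), Atp5c1 by 0.58 (adjusted p = 0.0132) and Cox5a, a matrix-side subunit, by 0.47 (adjusted p = 0.0185). Ndufb9 was not detected in EpiSC-GFP- and was at least 1.2-fold higher in EpiSC-GFP+ (adjusted p = 0.0394). Cox4i2, the isoform of subunit 4 known from lung, was the remaining member called higher (adjusted p = 0.015); it was detected on 1 EpiSC-GFP+ array and on no EpiSC-GFP- array, and its mean did not exceed the lowest detected signal, so no size is given.

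In the other direction, Cox6b1 read 12.75 and 12.73 in EpiSC-GFP- and 12.20 and 12.24 in EpiSC-GFP+ and fell by 0.52 in EpiSC-GFP+ (SE 0.12, adjusted p = 0.0106). Ndufv1, the flavin-binding core subunit where NADH is oxidised, fell by 0.47 (adjusted p = 0.0221), Atp5pb fell by 0.44 (adjusted p = 0.0326), Cyc1 fell by 0.42 (adjusted p = 0.027) and Atp5g2 fell by 0.37 (adjusted p = 0.0463). Atp5e, not detected in EpiSC-GFP+ and detected on 1 EpiSC-GFP- array, was at least 1.21-fold lower (adjusted p = 0.0432). With median scaling 16 members were higher and 0 lower, against a shift of the median of all genes from -0.01 to 0.23, and Atp5g2 turned to 0.05. Without EpiSC-GFP+ replicate 1 or replicate 2, 3 members were called, and without EpiSC-GFP- replicate 1 or replicate 2, 6 were. The EpiSC-GFP- arrays had the lowest numbers of detected probes, 9250 and 9571, against 10270 and 10315 in EpiSC-GFP+. The part of this difference in the calls was not tested.

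**Figure D5:**
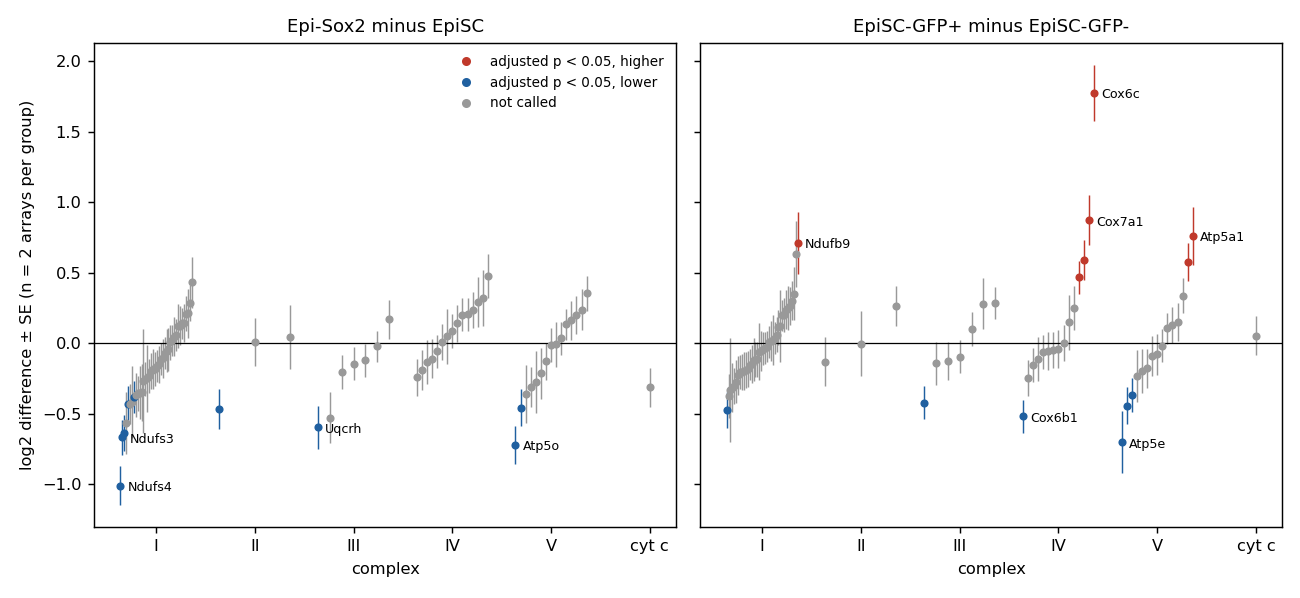
Difference in mean log2 signal with its standard error for the 79 members by complex, Epi-Sox2 minus EpiSC (left) and EpiSC-GFP+ minus EpiSC-GFP- (right); colour marks the call. On the left the 9 called members are all lower, led by Ndufs4 at -1.01; on the right Cox6c at 1.78 is the farthest from 0.

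The mean of both sorted E3 fractions against EpiSC compares 2 lines, of which E3 was kept in CM and sorted, so line, medium and sorting cannot be told apart. Of the 79 members, 32 (40.5%) were called against 40.3% of all genes, 17 higher (18.9%) and 15 lower (21.3%). The largest rises were those of alternative isoforms and complex I accessory subunits. Cox7a1 was called higher by 1.52 (SE 0.15, adjusted p = 9.43e-05) and Cox6b2 by 1.37 (SE 0.13, adjusted p = 7.95e-05). Ndufa3, a small membrane arm subunit, read 10.04 and 10.13 in EpiSC, 11.10 and 11.19 in EpiSC-GFP- and 11.16 and 11.15 in EpiSC-GFP+ and was called higher by 1.06 (SE 0.10, adjusted p = 6.02e-05). Ndufv3 was called higher by 0.99 (SE 0.12, adjusted p = 0.000184). For each of these 4, all sorted arrays lay above both EpiSC arrays. They were picked as the largest rises, and members that were not called, such as Cox7c and Atp5g1, lay so too. How many of all genes did was not counted. The largest falls included members already low in EpiSC. Uqcrb fell by 1.45 (SE 0.16, adjusted p = 0.000135), Ndufb10 fell by 0.85, Atp5h fell by 0.82, Cox7a2 fell by 0.80 and Ndufaf1 fell by 0.79; the Cox7a2 probe was not detected in EpiSC-GFP-. Sdhd, not detected in the sorted fractions, was at least 1.18-fold lower (adjusted p = 0.0093), and Cox5a fell by 0.60 (adjusted p = 0.00165). Without EpiSC replicate 1 the 15 lower calls became 9. With median scaling 4 members were higher and 21 lower, against a median of all genes that moved from -0.02 to -0.28.

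Of the isoform pairs of complex IV, that of subunit 6B had its extremes in the same groups, and that of subunit 7A differed in direction in some comparisons. Across the 5 replicated groups Cox6b2 had its lowest mean in ESC (6.27) and its highest in EpiSC-GFP- (8.38), and Cox6b1 likewise had its lowest mean in ESC (10.78) and its highest in EpiSC-GFP- (12.74). From EpiSC to Epi-Sox2 this pair differed in sign (0.47 and -0.06), with neither called. From EpiSC to the sorted fractions Cox7a1 rose while Cox7a2 fell by 0.80 (SE 0.14, adjusted p = 0.00148). They also differed for the mean of the 4 epiblast groups minus ESC (0.40 and -2.58) under quantile normalisation. There Cox7a1 lay at 0.035 with cyclic loess and at -0.339 with median scaling, and was called in neither. Cox7a1 and Cox7a2 were both lower in EpiSC than in ESC (-0.43, not called, and -2.14). Both were higher in EpiSC-GFP+ than in EpiSC-GFP- (0.87 and 0.25, the latter not called). For subunit 4, Cox4i1 was highest in ESC (12.75) while Cox4i2 was not detected in ESC, EpiSC, Epi-Sox2 or EpiSC-GFP-.

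T9-EpiSC, with 1 array, has no replicate check and no test. Of the 79 members, 7 lay above all 10 other arrays and 12 below, against 13.4% and 13.4% of all genes, and 60 lay within. The median of T9-EpiSC minus the group mean over the members was -0.07 against ESC, -0.08 against EpiSC, 0.04 against Epi-Sox2, -0.19 against EpiSC-GFP- and -0.12 against EpiSC-GFP+. Among complexes I to V, complex III had the lowest median against each epiblast group (-0.57 against EpiSC), and complex V against ESC (-0.16). Atp5g1 was the farthest below, at 10.64 against 11.79 to 12.50 on the other arrays; Atp5g2, at 9.72, and the stalk subunit Atp5j, at 11.60, were also below all 10, as were Cyc1, Uqcr11 and Uqcrc1 of complex III. Above all 10 stood Ndufs3, Ndufs4, Ndufs7, Ndufa13 and Ndufaf5 of complex I, and Cox7a2l and Cox4i2 of complex IV. Of the 15 members with the large falls in EpiSC, 12 were higher in T9-EpiSC than in the EpiSC mean. The 15 were picked for their low EpiSC values, which favours such a count, and it was not made over all genes. For Cox7b, Atp5h, Ndufab1 and Sdhd the gap was small (0.03, 0.03, 0.05 and 0.09). The summed fibroblast markers were as high in T9-EpiSC as in ESC, as given above, but not each marker: Acta2 read 10.84 against 10.58 and 10.53 in ESC, and Lox read 4.50 against 7.56 and 7.43. Their part was not tested.

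Genes around the respiratory chain were counted from lists of known members. For EpiSC minus ESC, 4 of the 14 measured genes of the TCA cycle and pyruvate dehydrogenase were called higher and 6 lower (median -0.17), against 40.4% and 26.2% of all genes tested; 71.4% of the list was called, against 66.6%. Dld, the dihydrolipoamide dehydrogenase of several such complexes, fell by 3.56 and Pdhb, a pyruvate dehydrogenase subunit, fell by 1.85, while Ogdh, of the oxoglutarate dehydrogenase complex, was called higher by 1.74. Of 26 assembly factors outside the naming rule, 10 were higher and 6 lower (median 0.21); Cox11, which delivers copper to complex IV, fell by 2.98, Ecsit, a complex I assembly factor, fell by 1.83, and Lrpprc, which stabilises mitochondrial mRNAs, was called higher by 1.35. Of 18 regulators of mitochondrial transcription and DNA, 6 were higher and 7 lower (median -0.16). Esrrb, a naive pluripotency factor of the estrogen-related receptor family, fell by 4.95, Gabpa, the DNA-binding part of GABP, fell by 1.96, and the mitochondrial helicase Twnk was called higher by 1.81. Of 71 mitochondrial ribosomal protein genes 26 were higher and 22 lower (median 0.04), and of 65 cytosolic ones 16 and 29 (median -0.21). The shares called, 61.5% of the assembly factors, 72.2% of the regulators and 67.6% and 69.2% of the ribosomal lists, lay near that of all genes.

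For Epi-Sox2 minus EpiSC, 23 of the 71 mitochondrial ribosomal genes were called lower and 1 higher, with a median of -0.27 (all genes, 9.40% lower, 10.5% higher and a median of -0.01), so that lower calls outnumbered higher ones there as among the respiratory chain members. Of the assembly factors 5 of 26 were lower and 1 higher, and of the TCA cycle genes 2 of 14 were lower and 0 higher. The cytosolic ribosomal genes had 10 lower and 1 higher of 65 (median -0.08). Of the 18 regulators, 2 were called higher and 3 lower. Esrrb was called higher by 3.43 and Ppargc1b, a coactivator of respiratory genes, by 0.91 (adjusted p = 0.00807). Tfb1m fell by 0.62 (adjusted p = 0.0306), Mterf1a by 0.53 (adjusted p = 0.0211) and Ssbp1 by 0.53 (adjusted p = 0.0351). Between the sorted fractions, where 13.4% of all genes were higher and 13.2% lower, the mitochondrial ribosomal genes had 7 higher and 13 lower of 71, the assembly factors 2 and 5 of 26 and the TCA cycle genes 1 and 1 of 14. The regulators had 2 higher and 1 lower of 18. Cs, the citrate synthase, was called higher in EpiSC-GFP+ by 0.71 (adjusted p = 0.00546). Among the regulators, Esrrb was called higher by 3.64 and Ppargc1b by 0.68, whereas Nrf1 fell by 0.74 (adjusted p = 0.00797). In the E3 fractions against EpiSC (all genes, 21.3% lower and 18.9% higher), 11 of 26 assembly factors were lower and 1 higher. The mitochondrial ribosomal genes had 24 of 71 lower and 8 higher, and the TCA cycle genes 5 of 14 lower and 2 higher. Of the 18 regulators, 5 were lower and 2 higher.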

How the data were processed

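RNA of 11 samples in 6 groups was amplified from 300 ng with 12 h of in vitro transcription and hybridised to MouseRef-8 v2 bead arrays, per the labels. The deposited table holds a mean bead intensity per probe and array, not normalised by the authors per the series' design text. The table also gives a detection p-value for each probe, per the file headers. The series matrix holds the authors' own processed log2 values, used as an alternative; its normalisation and background steps stay unknown, and the submitters' processing notes name BeadStudio 3.2, RMA and lumi.

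Intensities were background-corrected (normexp with detection p-values, offset 16), quantile-normalised and put on the log2 scale (R 4.3.3, limma 3.58.1). Of 25697 probes, 13048 with a detection p under 0.01 on at least 2 arrays were kept, and the brightest stood for each gene (9620 genes, of which 8873 are named through the platform table; 1719 probes on the array have no symbol). One mean per group was fitted to all 11 arrays with lmFit and eBayes (5 residual and 4.64 prior degrees of freedom), and p-values were adjusted by Benjamini-Hochberg over all genes. Group and comparison names follow the sample titles. The fit was tested on simulated data. Where a probe was detected on no array of one side, the fold is a bound against the lowest detected signal of each array. The number of arrays limits the precision.

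The members, lists and tests were chosen with earlier results of these data known. Named are, per complex, the 3 largest called rises and falls of the comparisons, complex II, cytochrome c, isoform pairs and members whose probes disagree; Ndufb2, Ndufb3, Ndufb6, Ndufb7, Ndufb10, Ndufaf1, Ndufa3, Ndufa9, Cox5a and Cox5b were added after their values were seen. Same-numbered replicates did not deviate together (correlations from -0.018 to 0.086), so the numbers do not pair the arrays.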

Additional observations from a re-analysis of the deposited data

How the results depend on the processing

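Precision is limited by 2 arrays per group and, for 9 of the 15 large falls, by a low level near background. Alternatives changed the background correction, scaling, values, detection filter, probe, variance model, threshold, block or arrays; leaving out an array leaves 1 in its group, which is then assumed to vary like the others. A block for the slide was not fitted, since the tables used here name no slide. The 15 members lower by at least 1 in EpiSC than in ESC stayed at 15 or 16 when an array was left out, and the 17 against the mean of the 4 epiblast groups at 16 to 18. The replicate block gave 53, 60, 7, 10 and 33 calls in the 5 comparisons against 52, 60, 9, 13 and 32, and 67 in the F-test. The labels give same-numbered arrays nothing in common beyond the number.

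For EpiSC minus ESC, cyclic loess gave 15 higher and 34 lower, and median scaling 34 called with 3 higher. For the mean of the 4 epiblast groups minus ESC, cyclic loess gave 19 higher and 35 lower, median scaling 6 and 44, and a difference of at least 0.5 left 24 higher. For Epi-Sox2 minus EpiSC, 14 were called with 2 higher at an offset of 50, 15 with 3 higher without background correction, 16 with 3 higher with an intensity trend in the variance, 5 with median scaling (5 lower), 4 from the authors' values (4 lower), 5 at a difference of at least 0.5 (5 lower), and 4 from only the arrays compared (4 lower); cyclic loess gave 1 higher. Leaving out an array gave 1 to 9 calls, 0 to 2 higher and 1 to 9 lower. For EpiSC-GFP+ minus EpiSC-GFP-, cyclic loess gave 3 lower, median scaling 16 higher and 0 lower, the authors' values 3 lower, the intensity trend 11 higher, a difference of at least 0.5 gave 8 called with 2 lower, and only the arrays compared 3 lower. Leaving out an array gave 3 to 15 calls, 2 to 9 higher and 0 to 6 lower. For the E3 fractions minus EpiSC, median scaling gave 4 higher, and a difference of at least 0.5 gave 21 called with 11 higher; leaving out an array gave 9 to 16 lower.

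Several values changed sign. For EpiSC minus ESC, cyclic loess put the members' median at -0.193, Atp5c1 at -0.018 and Atp5j2 at -0.038. Median scaling put the median at -0.321, Atp5c1 at -0.147, Atp5j at -0.020, Atp5j2 at -0.173 and Uqcrc2 at -0.091. The next brightest probe gave 0.202 for Cycs, -3.712 for Ndufa5, -1.423 for Ndufs4 and -0.022 for Ndufv3. For the mean of the 4 epiblast groups minus ESC, cyclic loess put the median at -0.113, Cox7c at -0.061, Cyc1 at -0.294 and Ndufv1 at -0.291. Median scaling put the median at -0.457, and gave -0.449 for Atp5c1, -0.300 for Atp5g1, -0.138 for Atp5g3, -0.081 for Atp5j, -0.308 for Atp5j2, -0.339 for Cox7a1, -0.394 for Cox7c, -0.507 for Cox8a, -0.649 for Cyc1, -0.185 for Ndufa4, -0.246 for Ndufa5, -0.158 for Ndufs4, -0.637 for Ndufv1, -0.043 for Uqcr10, -0.216 for Uqcrc1, -0.326 for Uqcrc2 and -0.447 for Uqcrh. The next brightest probe gave 0.020 for Cycs, -3.889 for Ndufa5 and -2.220 for Ndufs4. With median scaling, EpiSC-GFP+ minus EpiSC-GFP- had a members' median of 0.309 and Atp5g2 at 0.046, and the E3 fractions minus EpiSC had Ndufa12 at -0.045; the next brightest Atp5j probe gave -0.301 there. The median of T9-EpiSC minus EpiSC was 0.035 with cyclic loess, and that of T9-EpiSC minus EpiSC-GFP- was 0.243 with median scaling. Median scaling and cyclic loess also move the median of all genes, as given in the report; the cause was not tested. Of the named members' other values, 3091 stayed on their side of the threshold, 154 lost the call and 74 gained one over the alternatives that keep every array.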
